A study of Caenorhabditis elegans with 2 samples.

Results

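The regions described here lie between the 5′ ends of 2 protein-coding genes that are transcribed away from each other. They come from ChIP-seq, in which DNA held by a protein is pulled down with an antibody and sequenced. The protein was NHR-28, a nuclear hormone receptor of the nematode Caenorhabditis elegans, with an eGFP tag. A region was taken when its summit, its position of highest signal, had a minus-strand gene's 5′ end to its left and a plus-strand gene's 5′ end to its right, each within 1000 bp. Of the 29976 nuclear regions in the authors' relaxed list for both replicates together, 817 (2.73%) met this rule. The material was whole mixed-stage embryos of both sexes from strain OP317, whose genotype is the allele ed3 of unc-119 on chromosome III with the transgene wgIs317. The 2 libraries are biological replicates of 1 group, and the label gives nhr-28 as the antibody's target. No untagged strain, other genotype or input library was analysed here, so the comparisons set these regions beside other regions of the same lists. The tag was not checked in any other way.

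Neighbouring genes on opposite strands that point away from each other share the DNA between their 5′ ends, and such a divergent arrangement is common in the compact genome of C. elegans. A factor located there can lie in the promoter of either gene or of both, and position alone does not tell which. Nuclear hormone receptors are zinc-finger transcription factors, many of them regulated by small lipophilic ligands, and many recognise DNA sites built on the core AGGTCA. Many annotated 5′ ends of worm genes are trans-splice sites, so transcription can start upstream of them.

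The 6 strongest divergent regions of the authors' reproducible list are shown first, because they carry the highest signals between 2 genes. The choice was limited to places with no gene for a tRNA, snoRNA or other small RNA within 200 bp, and to 5 of the 6 nuclear chromosomes. Each sequence is the plus strand of ce11, read from the RefSeq genome sequence, and keeps to the bases between the 2 annotated 5′ ends. The summit is base 76 of each. No annotated gene overlaps them. Capitals mark, on either strand, any of 10 8-base words that were picked because they recurred in windows of this list, as described further on.
K01G5.10 and tasp-1, chrIII:10759178-10759306: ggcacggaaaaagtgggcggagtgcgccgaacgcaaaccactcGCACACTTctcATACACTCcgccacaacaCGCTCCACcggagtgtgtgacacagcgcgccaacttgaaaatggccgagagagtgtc
rpl-20 and Y17G9B.5, chrIV:4750016-4750165: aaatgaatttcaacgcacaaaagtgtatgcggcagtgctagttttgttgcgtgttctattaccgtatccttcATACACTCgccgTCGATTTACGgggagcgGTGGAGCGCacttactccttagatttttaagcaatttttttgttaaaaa
rpl-15 and K11H12.8, chrIV:654849-654998: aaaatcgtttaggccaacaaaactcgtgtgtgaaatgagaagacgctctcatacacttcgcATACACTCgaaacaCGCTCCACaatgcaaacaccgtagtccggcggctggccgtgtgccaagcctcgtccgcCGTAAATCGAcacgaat
ecps-1 and atx-2, chrIII:10461239-10461388: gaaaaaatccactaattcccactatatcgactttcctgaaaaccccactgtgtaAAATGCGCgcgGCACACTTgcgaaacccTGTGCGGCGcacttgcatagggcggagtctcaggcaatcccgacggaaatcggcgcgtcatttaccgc
rnf-121 and C16C10.4, chrIII:4171115-4171264: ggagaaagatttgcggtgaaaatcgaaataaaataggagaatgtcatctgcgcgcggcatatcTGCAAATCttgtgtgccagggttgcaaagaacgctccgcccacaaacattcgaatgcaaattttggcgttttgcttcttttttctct
Y62E10A.20 and Y62E10A.23, chrIV:13386179-13386323: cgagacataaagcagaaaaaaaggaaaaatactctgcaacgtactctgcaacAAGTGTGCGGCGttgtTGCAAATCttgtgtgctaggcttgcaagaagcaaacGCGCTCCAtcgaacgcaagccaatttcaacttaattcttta

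Each of the 6 sequences holds at least 1 of the words. The regions of rpl-20, rpl-15 and tasp-1 each hold both ATACACTC and CGCTCCAC. The longest run of bases shared by any pair of the 6 sequences, on either strand, was 16 bases, between the region of rnf-121 and that of Y62E10A.20, against a median of 9 bases over the 15 pairs. The capitals are a description of letters, and no protein was shown to bind them.

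Divergent regions were found in the authors' reproducible list more often than regions upstream of 1 gene. The authors filtered their list by the irreproducible discovery rate (IDR), a measure of how alike regions rank between replicates. In the filtered list, 1 divergent summit lay in no replicate 2 region. Whether a replicate 2 region overlapped that peak away from its summit is not given here. The filtered list held 34 of the 817 divergent regions (4.16%, Wilson 95% interval 2.99 to 5.76). Of the 5915 regions that lay upstream of 1 gene only, within 1000 bp of its 5′ end, it held 63 (1.07%, 0.833 to 1.36). Other 5′ ends could lie near such a region, provided that no divergent pair flanked it within that distance. The share over all nuclear regions was 0.721%, or 216 peaks. It was 0.261% of the 4599 regions downstream of a 5′ end and 0.574% of the 18645 with no 5′ end within 1000 bp. Intervals cover counting error only, neighbouring regions are not independent, and no test was run over regions.

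The same order was seen for regions found in each replicate on its own. The summit lay in a region of both replicate lists for 153 divergent regions (18.7%, 16.2 to 21.5), 437 upstream regions of 1 gene (7.39%, 6.75 to 8.08) and 4.7% of all nuclear regions. Replicate 1 alone covered a further 279 divergent summits, replicate 2 alone 93, and neither covered 292. The divergent regions made up 486 of the 14719 nuclear regions that were called in replicate 1 (3.30%) and 28 of its 216 strongest (13.0%). In the shorter list of replicate 2 they were 270 of 4532 (5.96%) and 32 of the 216 strongest (14.8%). Both libraries thus held a larger share of these regions among their strongest calls than among all their calls. Read totals were not used here, so the depth behind the shorter list of replicate 2 is unknown.

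The signal value, the authors' measure of a region's strength against a control, ran from 12.8 to 146 over the divergent regions, with quartiles of 16.0 and 27.6. Its median was 19.9, against 17.1 upstream of 1 gene and 16.7 in all nuclear regions. The median divergent region stood at percentile 73.2 of the nuclear list. Ranked by signal, divergent regions made up 34 of the 216 strongest nuclear regions (15.7%, 11.5 to 21.2). These 34 are the divergent IDR regions, and each class of position had as many regions here as in the IDR list. This share is therefore no separate result. Divergent regions made up 45 of the next 284 (15.8%). They made up 10% of the next 500, 8% of the 1000 after that and 3.83% of ranks 2001 to 5000, and 1.77% beyond rank 10000. Regions upstream of 1 gene made up 29.2% of the strongest, 34.8% of ranks 501 to 1000 and 18.4% beyond rank 10000. Within a class of rank, 97.1% of the divergent and 98.6% of all nuclear regions among the strongest had a summit in both replicates. In the later classes the divergent share was the higher, at 91.1% and 89.8%, 72.0% and 64.4%, 37.5% and 31.9%, and 8.70% and 7.70% down to rank 5000. These divergent shares are 41 of 45, 36 of 50, 30 of 80 and 10 of 115 regions. All nuclear regions include the divergent ones, and no intervals were made for these gaps. In percentage points each gap was smaller than that over the whole list, at 18.7% and 4.70%. The part of signal in the larger share found in both replicates was not tested.

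**Figure D1:**
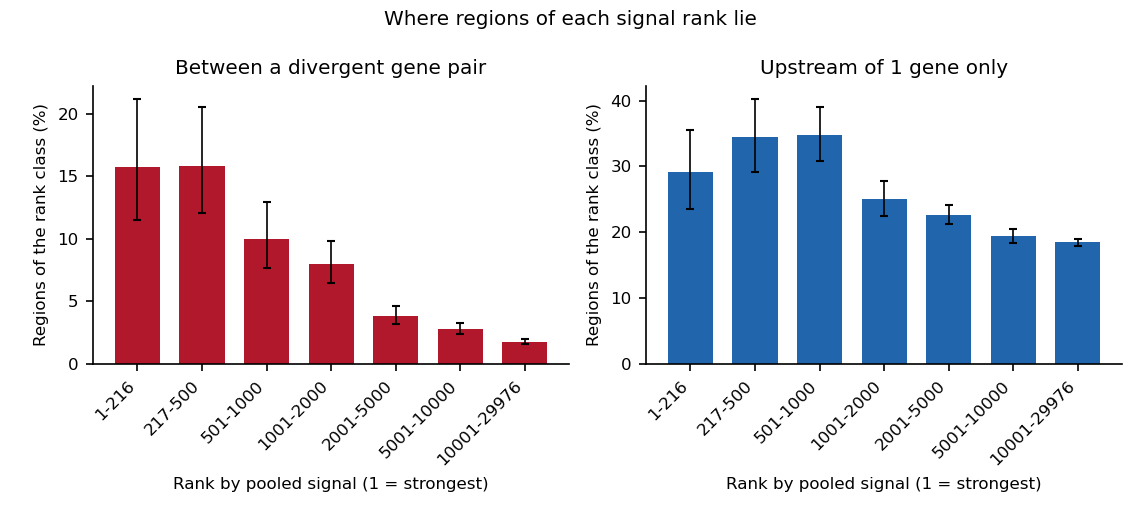
Share of nuclear regions that lie between a divergent gene pair (left, red) or upstream of 1 gene only (right, blue), by rank of pooled signal on the horizontal axis, in percent of the regions in each rank class; whiskers are Wilson 95% intervals. The divergent share is 15.7% in the strongest class and 1.77% in the weakest, and the vertical scales of the panels differ.

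The divergent rule covers little DNA. The positions that meet it add up to 1465066 bp, or 1.46% of the nuclear genome, and held 558 pooled regions, 104 regions of both replicates and 23.2 IDR peaks per Mb. Positions upstream of 1 gene held 352 regions, 26.0 regions of both replicates and 3.75 IDR peaks per Mb. The values for the whole nuclear genome were 299, 14.0 and 2.15 per Mb.

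The higher share of divergent regions was also seen among regions at a like distance from a gene, most clearly close to the 5′ end. With the summit up to 100 bp from the nearest 5′ end, 14 of 223 divergent regions (6.28%, 3.78 to 10.3) and 7 of 771 upstream regions of 1 gene (0.908%, 0.440 to 1.86) were in the IDR list. From there to 250 bp the shares were 3.86% (2.27 to 6.49) and 1.72% (1.12 to 2.61), and their intervals overlapped. From 250 to 500 bp they were 3.31% and 1.24%, and from 500 to 1000 bp 1.32% and 0.649%, with overlapping intervals and only 6 and 1 divergent IDR peaks. For regions of both replicates the divergent share was the higher in all 4 classes, from 21.1% against 9.08% in the closest to 10.5% against 4.80% in the farthest. The intervals were apart in the 2 closest classes.

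**Figure D2:**
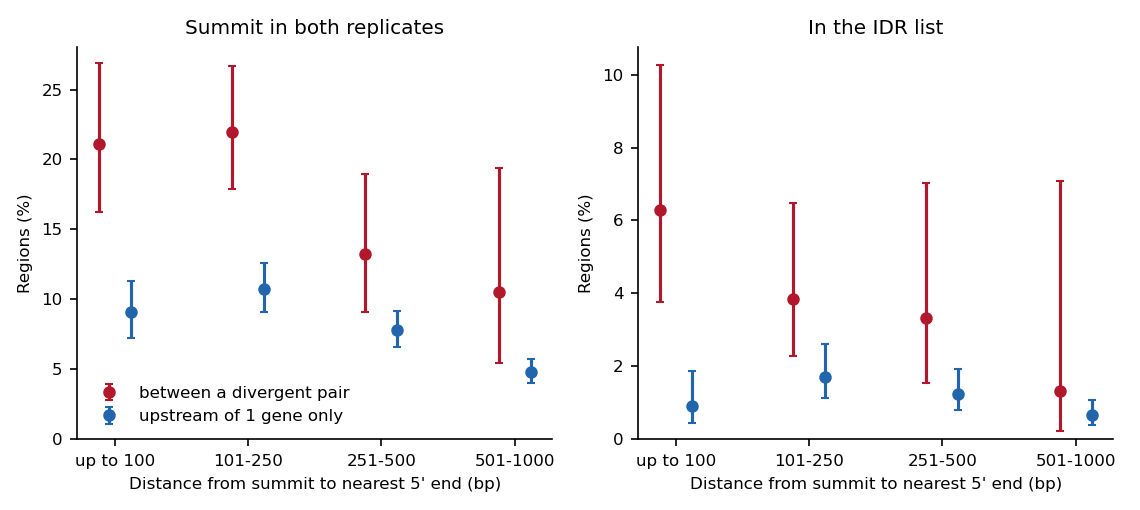
Share of regions with their summit in both replicate lists (left) and in the IDR list (right), in percent, by distance in bp from the summit to the nearest protein-coding 5′ end; red points are regions between a divergent pair, blue points regions upstream of 1 gene, and whiskers are Wilson 95% intervals. Divergent points lie above blue points in every class, by 6.28% against 0.908% in the IDR list up to 100 bp.

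The median distance from the summit was 173 bp to the nearer 5′ end and 493 bp to the farther one, and the 2 ends were a median of 678 bp apart. With the space of each pair divided into 3 equal parts, 346 of the 817 summits (42.4%) lay in the middle part, as did 41.2% of those in both replicates and 35.3% of those in the IDR list. In pairs over 1000 bp apart the rule itself favours the middle part. Such pairs held 219 of the 817 regions and 3 of the IDR regions. The shares that the rule alone would give were not worked out, so these values show no preference for a position. In IDR regions the median distances and spacing were 127, 439.5 and 602.5 bp, with spacings from 233 to 1256 bp. The summit was nearer the plus-strand gene in 437 regions, nearer the minus-strand gene in 378 and at equal distance in 2, and in the IDR list these counts were 18, 16 and 0. Of all 817 summits, 44 lay inside an annotated protein-coding gene and 36 had a further 5′ end between the pair. A gene for a tRNA lay within 200 bp of 7 summits, for a snoRNA of 5, for a miRNA of 3 and for an snRNA of 1, and 3 of these 16 regions were in the IDR list.

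**Figure D3:**
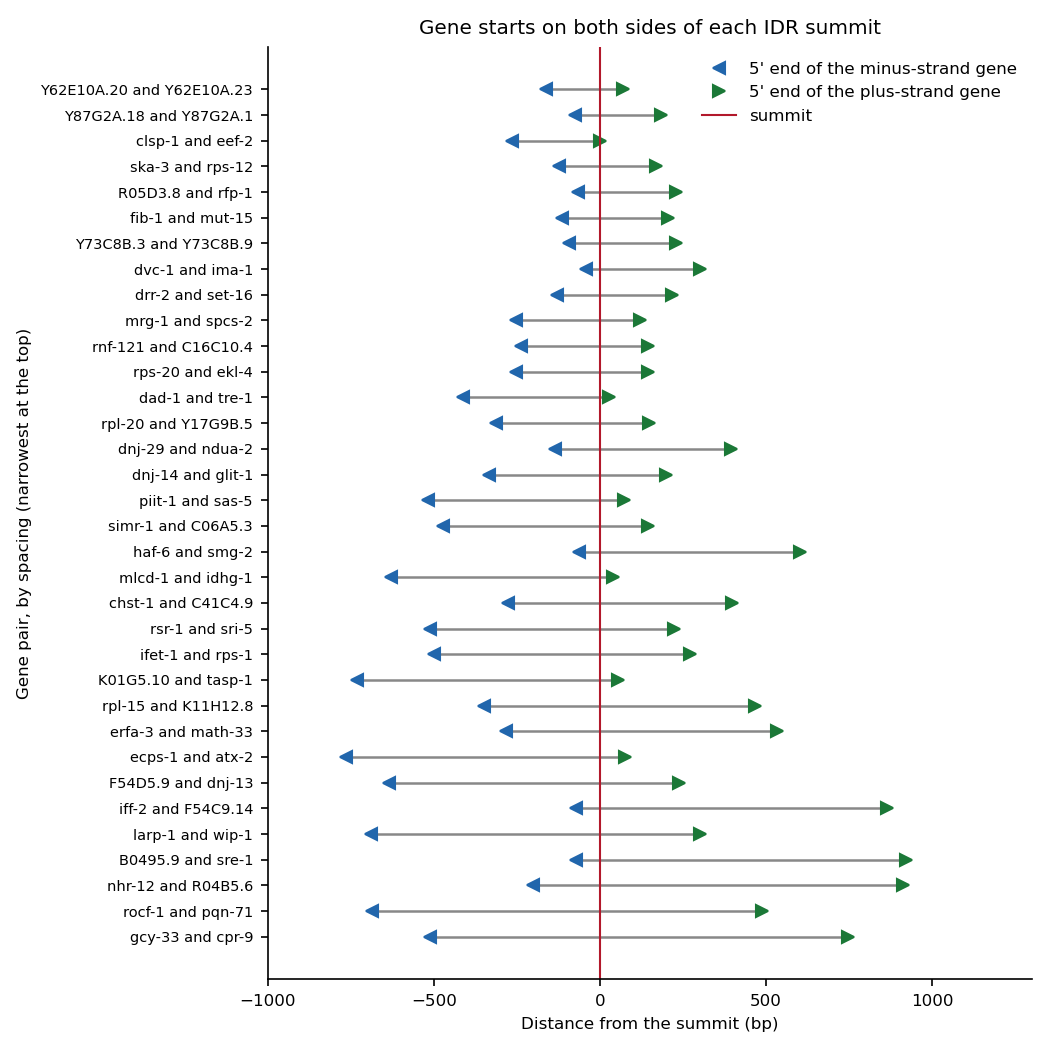
The 34 divergent IDR regions, 1 per row, with the distance in bp from the summit (red line) to the 5′ end of the minus-strand gene (blue, left) and of the plus-strand gene (green, right), ordered by spacing. Spacings run from 233 bp at the top to 1256 bp at the bottom, and in the row of clsp-1 and eef-2 the summit lies 1 bp from the 5′ end of eef-2.

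Seen from the gene pairs, those 250 to 1000 bp apart most often held a region. The annotation has 2559 adjacent divergent pairs up to 2000 bp apart, of which 730 (28.5%) held a region, 152 (5.94%) a region of both replicates and 34 (1.33%) an IDR peak. Among the 544 pairs 250 to 500 bp apart, 36.9% held a region, 10.5% a region of both replicates and 13 an IDR peak. Among the 828 pairs 500 to 1000 bp apart the values were 36.6%, 8.09% and 17. The 372 pairs up to 250 bp apart (15.1%, 2.42% and 1) and the 815 pairs over 1000 bp apart (20.9%, 2.33% and 3) held fewer. A narrow pair offers fewer positions for a summit, and wide pairs meet the rule only near their middle. Counted over the positions that could hold a summit, pooled regions came to 923, 1026, 555 and 410 per Mb from the narrowest to the widest class. By that count the narrowest pairs stood second, close to those 250 to 500 bp apart. Regions of both replicates came to 148, 285, 112 and 41.6 per Mb. The median signal of the regions was 21.3, 23.4, 20.7 and 17.5 in the same order.

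Most pairs held 1 region. Of 763 pairs with a member, 710 had 1, 52 had 2 and 1 had 3. The pair with 3 was fli-1, the worm homologue of the actin-regulating protein flightless, and anmt-1, with pooled signals of 19.4, 14.4 and 29.4 in order along the chromosome. The last of these, 249 bp from anmt-1, was the only region of the pair found in both replicates (12.1 in replicate 1, 15.1 in replicate 2). Beside the strong region of tasp-1, the same pair held a region of 14.9 found in neither replicate, 180 bp from K01G5.10. The pair of ecps-1 and atx-2 likewise held a weaker region of 20.4, 260 bp from ecps-1, which was found in replicate 1 only (11.4).

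The 34 IDR regions had pooled signals from 56.6 to 146, with a median of 68.7, against 74.4 for the other nuclear IDR peaks. The rule of the list is close to a threshold on signal, since the strongest divergent region outside it had 55.4. Replicate signals come from lists with scales of their own, so that they are given to show the order of pairs within a library. All but 1 of the 34 summits lay in a region of each replicate. Over the 33 that did, the 2 replicates' signals had r = 0.459 and rho = 0.405, as a description across regions of the same 2 libraries. Over all 153 divergent regions of both replicates the values were r = 0.724 and rho = 0.602, and over the 581 other regions within 1000 bp of a 5′ end r = 0.746 and rho = 0.479.

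Cytosolic ribosomal protein genes flanked 5 of the 34 and translation factor genes 3, which are 5 of 49 (10.2%) and 3 of 22 (13.6%) of the paired genes in those lists, against 1.33% of all paired genes. Mitochondrial ribosomal protein genes (27 paired) and aminoacyl-tRNA synthetase genes (15 paired) flanked 0. The region between rpl-20, a gene of the large ribosomal subunit, and Y17G9B.5 had a signal of 122 in the pooled list, 77.4 in replicate 1 and 37.4 in replicate 2. Only the region of tasp-1 had a higher pooled signal among divergent regions. The summit lay 149 bp from Y17G9B.5 and 313 bp from rpl-20. Between rps-20, for a protein of the small subunit, and ekl-4, the values were 109 pooled, 57.2 in replicate 1 and 50.4 in replicate 2. The region of rpl-15 and K11H12.8 had 99.7 pooled, 49.2 in replicate 1 and 51.2 in replicate 2, and lay 348 bp from rpl-15. At rps-1 and ifet-1, whose product represses translation through the cap-binding protein, the values were 69.4, 36.9 and 33.9, and at rps-12 and the kinetochore gene ska-3 64.9, 46.3 and 23.5. The last pair differed more between libraries in rank, at percentile 99.5 of replicate 1 and 91.0 of replicate 2. The gene iff-2, for a homologue of initiation factor eIF-5A, had a region 71 bp from its 5′ end (74.8 pooled, 39.6 in replicate 1, 38.8 in replicate 2), 864 bp from F54C9.14. The summit between clsp-1, a claspin homologue, and eef-2, for the elongation factor that moves the ribosome along, lay 1 bp from the 5′ end of eef-2 (73.2, 35.3 and 36.7). At erfa-3, for a translation release factor, and the deubiquitinase gene math-33, the values were 65.6, 21.1 and 48.6. This region was the weakest of the 34 in replicate 1 and among the stronger ones in replicate 2.

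The strongest divergent region of all, between K01G5.10 and the gene tasp-1 for a homologue of the protease taspase, had its summit 731 and 54 bp from them, with 146 pooled, 81.6 in replicate 1 and 62.0 in replicate 2. Among the 153 divergent regions of both replicates it was the highest in each library. The region 75 bp from atx-2, the ataxin-2 gene, and 763 bp from ecps-1 had 93.4, 47.2 and 44.5. Between rnf-121, which encodes a RING finger protein, and C16C10.4 the values were 92.8, 52.1 and 36.5, and between Y62E10A.20 and Y62E10A.23, the narrowest pair of the 34 at 233 bp, they were 82.2, 43.7 and 33.6. Metabolic genes followed at mlcd-1, for malonyl-CoA decarboxylase, and idhg-1, for a subunit of mitochondrial isocitrate dehydrogenase (81.8, 37.3 and 40.2). The summit there was 38 bp from idhg-1. The nuclear hormone receptor gene nhr-12 had a region 202 bp from its 5′ end and 913 bp from R04B5.6 (76.6, 41.0 and 41.5). The pair of larp-1, for a La-related RNA-binding protein, and wip-1, whose product binds the actin regulator WASP, had 75.6, 36.9 and 32.6. That of simr-1, a gene of the small RNA pathway, and C06A5.3 had 69.4, 33.1 and 35.8. The chromodomain gene mrg-1, paired with the signal peptidase gene spcs-2, had 68.9, 34.4 and 35.4. At drr-2, for a homologue of initiation factor eIF-4H that the symbol list of translation factors does not hold, and set-16, for a histone methyltransferase, the values were 63.8, 31.4 and 27.6. Between Y87G2A.18 and Y87G2A.1 they were 74.5, 38.3 and 40.3.

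Of the 32 paired chaperone genes 3 (9.38%, 3.24 to 24.2) stood at an IDR region, against 1.33% of all paired genes, and all 3 encode J-domain co-chaperones. They were dnj-14 with glit-1 (66.5 pooled, 33.0 in replicate 1, 32.4 in replicate 2), dnj-29 with the respiratory complex gene ndua-2 (65.5, 32.1 and 35.1) and dnj-13 with F54D5.9 (59.4, 31.9 and 27.9). The last was the only IDR summit inside an annotated protein-coding gene. At R05D3.8 and rfp-1, for a RING finger protein, the pooled signal was 61.0 and that of replicate 1 44.7, while replicate 2 had no region over the summit. The other 9 IDR regions, dnj-13 among them, had pooled signals from 56.6 to 60.8. They included fib-1, for the nucleolar protein fibrillarin, with mut-15, and smg-2, for the helicase of nonsense-mediated decay, with haf-6.

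A small RNA gene lay at 3 IDR regions. The summit between gcy-33, a guanylate cyclase gene, and cpr-9, a cathepsin B-like protease gene, was 48 bp from the tRNA gene F57F5.t1 and more than 500 bp from either 5′ end (81.0, 38.6 and 49.2). That between rocf-1 and pqn-71 was 31 bp from the tRNA gene T23F1.t1 (66.7, 30.7 and 32.4), and that between chst-1 and C41C4.9 lay in the snoRNA gene C41C4.11 (68.4, 39.3 and 28.3). The part of these RNA genes in the signal was not tested. Without regions at RNA genes the IDR share of divergent regions was 3.87%, close to the 4.16% with them.

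**Figure D4:**
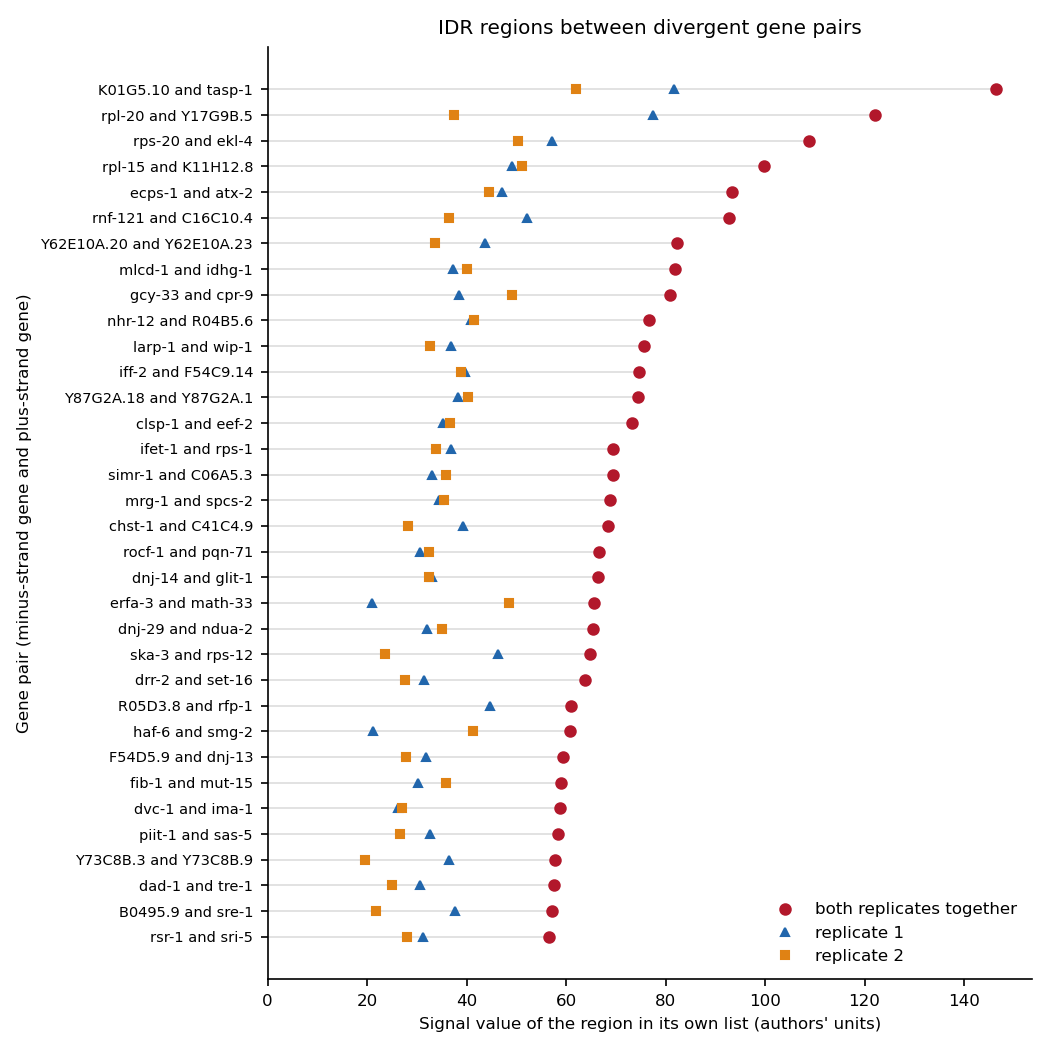
Signal values, in the units of the deposited lists, of the 34 divergent IDR regions, 1 per row: red circles are both replicates together, blue triangles replicate 1 and orange squares replicate 2, each on the scale of its own list. The pooled value is the highest in all 34 rows, from 146 for tasp-1 to 56.6 for rsr-1, and the row of R05D3.8 and rfp-1 has no replicate 2 point.

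The next 10 regions of both replicates lay just below the IDR list in signal, with pooled signals of 51.2 to 55.4. The highest was between hsp-110, a chaperone gene, and rpn-3, for a subunit of the proteasome lid, with 55.4 pooled, 18.5 in replicate 1 and 37.6 in replicate 2. The Wnt pathway gene mom-1, known to act in Wnt secretion, and lev-9 followed with 54.2, 30.3 and 23.6, at a summit inside the tRNA gene T07H6.t2. Then came the nucleoporin gene npp-14 with the mRNA capping enzyme gene cel-1 (53.9, 24.6 and 31.4) and rpl-22 with the securin gene ify-1 (53.2, 25.7 and 24.7). The ribosomal gene rps-15 with F36A2.9 had 51.9, and the initiation factor gene eif-3.D with R08D7.4 had 51.5. The other 4 pairs were R04F11.5 with R04F11.2, Y105C5A.1268 with Y105C5A.1272, nhl-2 with tag-340, and tim-1 with Y75B8A.23, the last beside the SL2 spliced leader RNA gene sls-2.8. Of all 10, the hsp-110 region had the lowest replicate 1 signal and the highest replicate 2 signal.

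Ribosomal protein genes were the list with the largest share of divergently paired genes at a region of both replicates. Of 49 cytosolic ribosomal protein genes in an adjacent pair, 40 had a region, 19 (38.8%, 26.4 to 52.8) a region of both replicates and 5 (10.2%) an IDR peak. Over all 5118 genes of such pairs the shares were 28.5% for a region, 5.94% for both replicates and 1.33% for the IDR list. The 19 genes belong to 16 regions, since 3 pairs joined 2 such genes, namely rpl-24.1 with rps-10 (42.8), rpl-36 with rps-14 (35.1) and rpl-39 with rps-30 (31.7). The 16 signals ran from 31.7 to 122 with a median of 49.8. The summit was not always on the side of the ribosomal gene. Of the 13 regions with a single ribosomal protein gene, 5 were nearer to it and 8 nearer to its partner, at medians of 271 bp and 188 bp. At rpl-12 the summit was 42 bp from its 5′ end and 351 bp from lin-54, a gene of the DREAM repressor complex (49.7), while at rpl-31 it was 271 bp away and 34 bp from sac-2 (44.2). The remaining partners of this list were nfx-1 for rps-13 (49.8), hsr-9 for rps-19 (48.8), mrpl-49 for rpl-28 (42.8) and the vesicle transport gene rab-11.1 for rpl-7 (42.7).

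Chaperone genes had 9 of 32 at a region of both replicates (28.1%, 15.6 to 45.4) and 3 in the IDR list, with cct-1 (45.9) and cct-8 (32.9), for subunits of the chaperonin that folds actin and tubulin, among those outside it. Translation factor genes had 5 of 22 (22.7%, 10.1 to 43.4), the 3 above with eif-3.D and eef-1A.1 (35.7). For mitochondrial ribosomal protein genes the counts were 5 of 27, from mrpl-49 (42.8) down to mrpl-37 (24.5), and 0 were in the IDR list. Nucleoporin genes had 4 of 17, npp-3 with the topoisomerase gene top-2 (39.8) among them. Vesicle traffic genes had 7 of 36, with vps-51 beside the retinoblastoma homologue lin-35 (40.6), and ubiquitin pathway genes 4 of 19, with the cullin gene cul-1 (29.4). The lower bounds of these 6 shares lay above the 5.94% of all paired genes. The lists are not independent, since some regions count in 2 of them. Examples are the regions of rpl-28 with mrpl-49, npp-25 with mrps-10 and rab-11.1 with rpl-7. The intervals also take no account of the number of lists. Respiration (3 of 20), cell division (3 of 21) and aminoacyl-tRNA synthetase genes (2 of 15) had intervals that took in that share. So did RNA processing (2 of 34), the proteasome (1 of 22, rpn-3) and the receptor family of NHR-28 itself (2 of 44, nhr-12 and nhr-142, with 48.4 at nhr-142).

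The share of chemoreceptor genes lay below that of all paired genes. Of 282 chemoreceptor genes chosen by symbol, 4 had a region of both replicates (1.42%, 0.553 to 3.59), 2 of them in the IDR list, and the interval ended below the 5.94% of all paired genes. The IDR regions at sre-1 and sri-5 lay 922 bp and 222 bp from those genes, with B0495.9 at 72 bp and the splicing gene rsr-1 at 510 bp as partners. The 64 histone genes form 33 pairs, of which the pair of his-67 and his-68 (45.4) held such a region, which gives 2 of 64 genes (0.861 to 10.7%). Collagen genes had 0 of 40, detoxification genes 0 of 45 and homeobox genes 0 of 10, which allow shares of up to 8.76%, 7.87% and 27.8% by the Wilson interval. The intervals of these 4 lists take in the share of all paired genes. No RNA level was measured here, so how actively these genes were transcribed in the embryos was not tested.

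**Figure D5:**
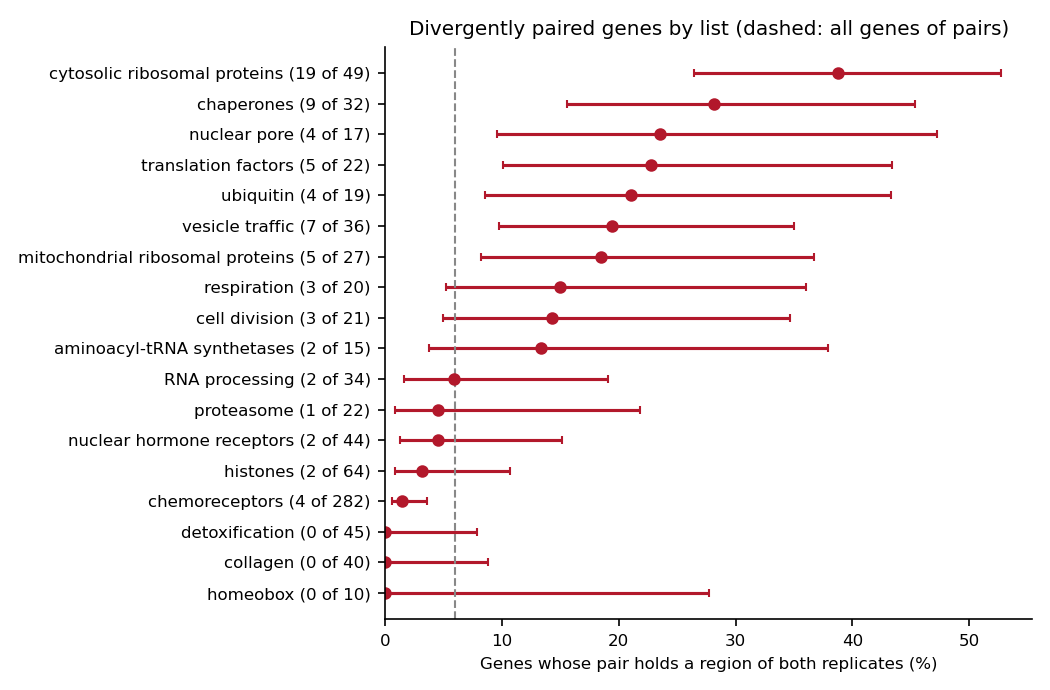
Share of divergently paired genes whose pair holds a region of both replicates, in percent, for 18 lists of genes chosen by symbol, with counts beside each name, Wilson 95% intervals as whiskers and the share of all paired genes as a dashed line at 5.94%. Cytosolic ribosomal proteins lie highest at 38.8%, and 3 lists are at 0.

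The X chromosome carried 41 of the 817 divergent regions and 1 of the 34 IDR regions, that of dnj-14 and glit-1, while 54 of the 216 nuclear IDR peaks of all kinds lay on X. It also has few divergent pairs, 178 of 2559. An IDR peak was found in 0.562% of the X pairs (0.0992 to 3.11) and 1.39% of the autosomal pairs (0.989 to 1.94), so that these data do not separate the 2 shares. A region of both replicates made up 12.2% of the members on X (5.32 to 25.5) and 19.1% on the autosomes (16.5 to 22.0). Among autosomes the divergent IDR regions were most numerous on III, with 10 of 168 members (5.95%), and least on IV, with 3 of 147 (2.04%). The share of all 817 was 4.16%. These counts are small, and the difference between chromosomes was not tested.

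The DNA at the strong divergent summits was richer in G and C. Over 201 bp centred on the summit, mean GC content was 43.3% ± 5.51 (SD) in the 34 IDR regions, 40.4% ± 6.31 in the 153 of both replicates and 36.7% ± 6.36 in all 817. IDR regions upstream of 1 gene had 43.1% ± 5.32, so that the strong regions of both kinds were alike in this. Over all nuclear regions the mean was 35.6% ± 6.68.

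Short motifs, 5 in all, were counted in the same windows on both strands. The receptor core site AGGTCA was in 5 of the 34 divergent IDR windows (14.7%, 6.45 to 30.1), 5.26% of all divergent windows and 7.94% of the 63 IDR windows upstream of 1 gene (3.44 to 17.3). It was in 5.05% of the windows of all other regions within 1000 bp of a 5′ end and 5.12% of all nuclear windows. The 5 divergent IDR windows were those of tasp-1, pqn-71, glit-1, ima-1 and sas-5, with the site 56 to 97 bp from the summit. The longer form AAGGTCA, which contains it, was in 1 of the 34, that of pqn-71, and in 1.84% of all divergent and 1.57% of all nuclear windows. GAGAGA was in 23.5% of the divergent IDR windows (12.4 to 40.0), 18.6% of all divergent windows, 30.2% of the 63 IDR windows upstream of 1 gene (20.2 to 42.4) and 13.3% of nuclear ones. TTTCAG, the consensus of the worm 3′ splice site, was in 17.6%, 28.6%, 12.7% and 34.8% of the same sets. TATAAA was in 1 of the 34 divergent IDR windows (2.94%, 0.521 to 14.9), in 10 of the 63 IDR windows upstream of 1 gene (15.9%, 8.86 to 26.8) and in 21.3% of all nuclear windows. A motif match is a count of letters, and an absent one says nothing about whether a factor was there.

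The 8-base words marked in the printed sequences were searched for after the data were seen. Of all 8-base words on either strand, 44 stood in at least 5 of the 34 IDR windows, and the 10 with the lowest share of all nuclear windows were listed. CGCTCCAC was in 7 of the 34 and in 0.544% of all nuclear windows. CGCCGCAC and GCCGCACA, ATACACTC, GATTTGCA, AAATGCGC, and CGTAAATC and TAAATCGA were each in 5, as was GCGCTCCA, and AAGTGTGC was in 6. The words CGCCGCAC and GCCGCACA overlap, as do GCGCTCCA and CGCTCCAC, and CGTAAATC and TAAATCGA. The counts in the 34 follow from the choice and support nothing.

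Windows outside the 34, which entered the choice only through the share of all nuclear windows, gave lower shares. At least 1 of the 10 words was in 34 of the 120 divergent regions of both replicates outside the IDR list (28.3%) and in 123 of the 664 divergent regions not found in both (18.5%), 1 of which is the IDR region of rfp-1. It was in 16 of the 63 IDR windows upstream of 1 gene (25.4%), 452 of all 5915 windows upstream of 1 gene (7.64%) and 2076 of all 29976 nuclear windows (6.93%). CGCTCCAC was in 7 of the 120 (5.83%, 2.85 to 11.6) and GCGCTCCA in 12 (10%, 5.81 to 16.7), against 0.544% and 0.924% of all nuclear windows. ATACACTC and GATTTGCA were in 0 of the 120 and in 0 of the 63, so that their recurrence was not seen outside the windows that picked them. GC content also differs between these groups, as given above, and its part in these shares was not tested.

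The number of members depends on the limit of 1000 bp, and 20 of the 34 IDR regions had both 5′ ends within 500 bp. Just inside the limit lay mog-1 with alx-1, whose farther 5′ end was 995 bp away (signal 27.6, in both replicates), C02F5.10 with knl-1 at 997 bp (15.0) and nep-26 with mdt-22 at 998 bp (19.6). Just outside were ril-1 with hda-1 at 1001 bp (40.2, in both replicates), vps-53 with rmd-1 at 1001 bp (20.8) and pas-4 with C36B1.14 at 1004 bp (19.8).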

How the data were processed

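The 2 ChIP-seq libraries form 1 group. Per the labels and the libraries' text records, the authors made a relaxed list of regions from each replicate and from both together, relative to a control, as input for IDR, and deposited the list left by IDR. Which aligner, caller and IDR cutoff were used is not given in the sources used here. Without read totals the depth is unknown. The deposited signal value of each region is the authors' measure against that control, and its scale depends on the library, so levels were compared within 1 list. The ce11 lists were used, with 30000 pooled, 14746 replicate 1, 4556 replicate 2 and 238 IDR regions. Most pooled regions are 324 bp wide.

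Each gene's outermost 5′ end was taken from Ensembl release 115 (WBcel235), for 19973 nuclear protein-coding genes, and names and sequence from RefSeq. A region counted as found in a replicate when its summit lay in a region of that list. Shares have Wilson 95% intervals and no test was run, since regions and genes are not replicates. Gene lists were made by symbol, and the chemoreceptor list was narrowed to named receptor families after its values were seen. The text names genes of the 25 strongest divergent IDR regions, of the 10 strongest outside that list found in both replicates, of the 3 pairs with the most regions (1 with 3 regions and, from 52 with 2, the 2 with the highest signal, an order set after the data were seen), and list members at a region of both replicates. Other named genes, among them several of the weaker IDR pairs and the pairs at the distance limit, were chosen after their values were seen. The members and lists were chosen with earlier results of these data known. The region rule was checked on simulated positions. Alternatives changed the distance limit, 5′ ends, summit definition, overlap and libraries used. Others, chosen after the data were seen, changed the regions compared or left out chromosome X or some genes. Python 3.11.15, pandas 2.3.3, numpy 2.4.6 and SciPy 1.17.1 were used.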

Additional observations from a re-analysis of the deposited data

How the results depend on the processing

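Of 79 values under other settings, 55 stayed close to the reported value, 24 moved away from it and 0 changed sign. Only the differences in shares could have changed sign. The other values are counts, shares, percentiles and distances, which cannot be negative. With both 5′ ends within 500 bp there were 417 divergent regions, 24.2% in both replicates, at median percentile 81.9 and 123 bp from the nearer 5′ end. With 2000 bp there were 1734, of which 2.88% were in the IDR list and 13.9% in both replicates, at percentile 65.6 and 297.5 bp. The share of pairs with a region was 23.5% at 500 bp and 35.1% at 2000 bp. The difference in shares, divergent minus all other regions near a 5′ end, was 3.45 percentage points for the IDR list and 13.2 for both replicates. It was 2.26 and 9.37 points at 2000 bp, and 17.1 points for both replicates at 500 bp. With IDR peaks above their median signal only, the IDR share was 1.59%, its difference 1.25 points, and 0.508% of pairs held such a peak. A 1 bp overlap with each replicate in place of the summit gave 22.4% in both. On 1 replicate's list alone, leaving out the other, there were 270 to 486 divergent regions at percentile 65.1 to 69.7. The share of pooled divergent regions found in the remaining library was 30.1% to 52.9%, and the difference from other promoter regions 15.8 to 16.8 points. In alternatives chosen after seeing the data, the differences against regions upstream of a 5′ end only were 3.10 and 11.3 points. With a 5′ end within 250 bp they were 3.81 and 13.9 points. The IDR difference was 3.58 points without chromosome X, and 2.72 points without ribosomal protein and translation factor genes. No paired analysis was possible because there is 1 group and no test. Intervals cover counting error only, 2 libraries are too few to give a spread between samples, and position does not say which gene of a pair a region acts on.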
